A study of Mus musculus with 8 samples.

Results

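The genes described here are nuclear genes named for subunits of the mitochondrial respiratory chain and ATP synthase, 85 of 23983 genes measured. They were chosen by symbol: Nduf subunits for complex I, Sdh for complex II, Uqcr and Cyc1 for complex III, Cox4 to Cox8 for complex IV, Atp5 for complex V, and Cycs for cytochrome c. Clusters whose symbol marks a pseudogene were left out, though clusters kept under a gene's own symbol may still read processed copies. The rule itself uses no measured difference, but the set was chosen with earlier results of these data known. Complex I had 36 genes, complex II 4, complex III 9, complex IV 18 and complex V 17, with Cycs as the remaining gene. The study measured prefrontal cortex of adult male mice, aged 12 weeks and at rest, on 1 Affymetrix array per mouse. Arrays of 4 wild-type mice were compared with arrays of 4 mice labelled Mll1 knockout. All mice had lived alone for 1 week before the brain was taken. The tissue source is given as cingulate cortex, and the series title calls the Mll1 function studied neuronal. The deleted part of the gene, any Cre driver and the strain are not given in the sources used here.

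The respiratory chain passes electrons from NADH (complex I) and succinate (complex II) through ubiquinone to complex III, then by cytochrome c to complex IV and oxygen. Complexes I, III and IV pump protons, and complex V uses the proton gradient to make ATP. Most subunits are encoded in the nucleus, while a core set is encoded by mitochondrial DNA and is not analysed here. Neurons depend heavily on this pathway to restore ion gradients after firing. The protein of Mll1 (Kmt2a) methylates histones at the promoters of active genes.

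Values are log2 signals, so a difference of 1 would be a doubling, and each difference is the Mll1 knockout arrays minus the wild-type arrays. Kmt2a was higher on the arrays labelled Mll1 knockout, at 10.35 ± 0.06 against 10.06 ± 0.09 in wild-type (SD, n = 4 and 4; limma adjusted p = 0.0142). Which exons were removed is not known here, so this value is no check of the labels, and directions below rest on them. Array medians ran from 7.99 to 8.08. The lower quartile was 6.89 to 6.94 in wild-type and 6.80 to 6.83 on the other arrays, and bright genes as a whole had higher signals and dim genes lower signals on the latter. Of 5 measured cortex markers none rose and 2 fell, with mean levels of 11.20 to 11.32 over the wild-type mice and 10.91 to 11.05 over the mice labelled knockout. Of 10 markers of neurons and GABAergic neurons 1 fell, Gad1 (-0.20 ± 0.05, SE; limma adjusted p = 0.0349). None of 19 astrocyte, oligodendrocyte, microglia and endothelium markers passed, nor did any of 4 choroid plexus markers, and 1 of 5 striatum and 1 of 2 erythrocyte markers fell. These are bulk samples, in which fewer cells of a type and less RNA per cell cannot be told apart.

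Respiratory chain genes had slightly higher signals on the arrays labelled Mll1 knockout, but few differences passed the threshold. Of the 85 genes 6 rose: Cox7a2 of complex IV, Ndufa12 and Ndufb8 of complex I, Cyc1 and Uqcrh of complex III, and Atp5l of complex V. Only Cox6b2, an isoform of a complex IV subunit described as testis-specific, fell. The 6 rises are 7.06% of the genes, beside 5.15% of all genes that rose, and the single fall is 1.18%, beside 5.69% of all genes that fell (limma, adjusted p under 0.05). Rises were thus about as frequent as among all genes. At an unadjusted p under 0.05, 33 of the 85 were higher and 3 lower, beside 12.7% and 20.3% of all genes. These shares were not counted among genes of similar signal level.

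The direction was more uniform than the calls. The difference was above 0 for 74 of the 85 genes (87.1%), beside 41.7% of all genes, and the median difference was 0.113 against -0.032 over all genes. Signal level moved with this. The chain genes are bright: 48 of them lie in the brightest of 10 equal bins of all genes by signal level, at mean signals from 10.47 upward. Over all genes as bright as these the median difference was 0.065, with 13.9% rising and 1.63% falling. The 48 chain genes there had a median of 0.119, and 46 of them were above 0 (95.8%, beside 74.3% of all genes that bright), but only 2 rose (4.17%). The groups did not overlap, with knockout higher, in 22 of the 85 (25.9%), beside 9.47% of all genes and 23.9% of the brightest bin. They did not overlap, with knockout lower, in 2, beside 10.1% of all genes. The part of signal level in the shift was not tested.

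**Figure D1:**
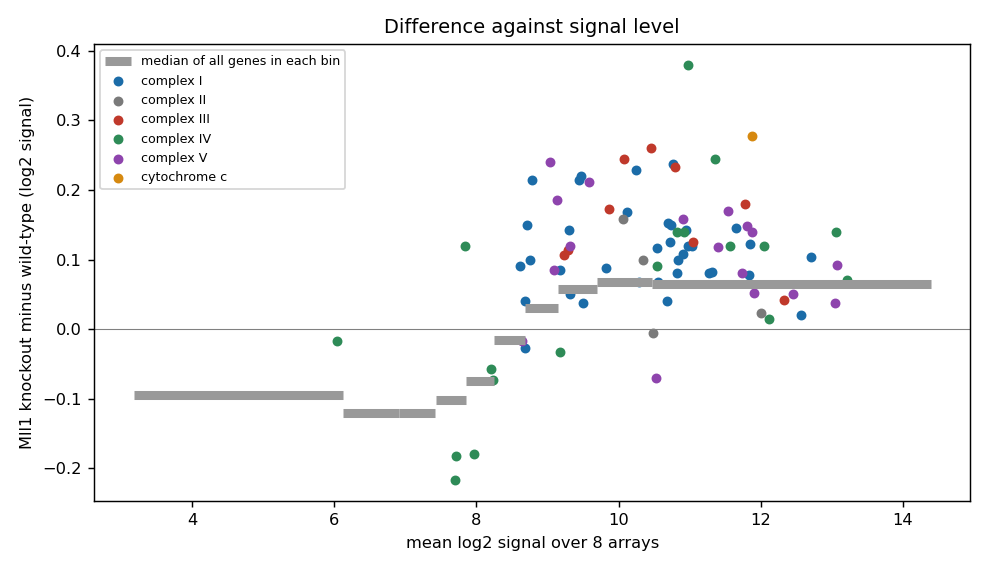
Difference between the arrays labelled Mll1 knockout and wild-type (y axis, log2) against mean signal over 8 arrays (x axis, log2) for the 85 genes, coloured by complex. Grey bars give the median of all genes in 10 equal bins of signal level. Most chain genes lie to the right, where the grey bars are above 0, and 46 of the 48 genes in the brightest bin lie above 0.

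The number of calls depended on normalization. After quantile normalization only Cox7a2 passed among the chain genes, 1 rise and no fall, beside 2.86% of all genes that rose and 1.58% that fell. The median difference of the 85 genes was then 0.060 against -0.009 over all genes, and 67 were above 0, beside 46.5% of all genes. The groups then did not overlap, with knockout higher, in 7, beside 8.32% of all genes. With each array centred on its median, 29 chain genes rose and none fell, and 85.5% of all calls were rises, against 47.5% in the deposited values and 64.4% after quantile normalization. Centring left the median of all genes at 0.029, and 11.9% of all genes then rose, beside 34.1% of the chain genes.

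**Figure D2:**
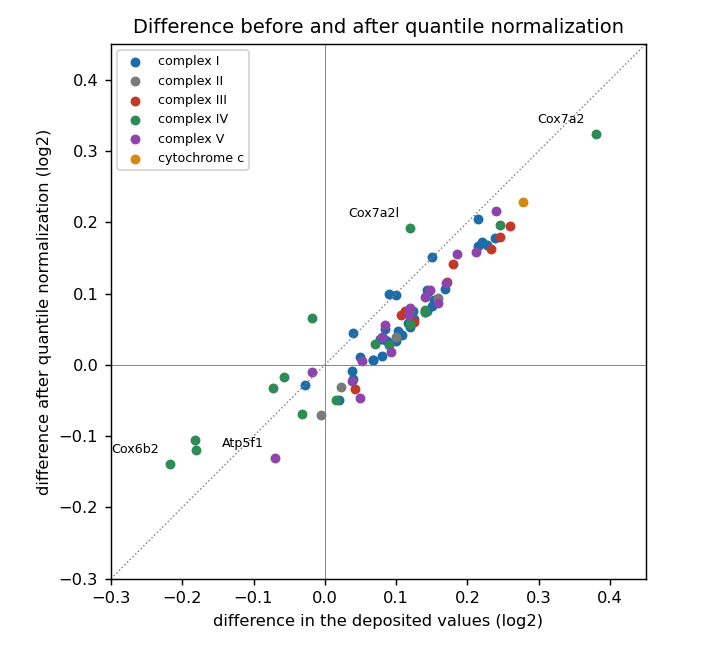
Difference of each of the 85 genes in the deposited values (x axis, log2) against the difference after quantile normalization (y axis, log2). The dotted line marks equal values. Most genes lie below the line, Cox7a2 stays farthest from 0 at 0.32 after normalization, and Cox6b2 moves from -0.22 to -0.14.

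The complexes overlapped widely in their differences. The median was 0.172 for complex III, 0.118 for complex V, 0.105 for complex I, 0.080 for complex IV and 0.061 for complex II. The order was the same after quantile normalization (0.116, 0.071, 0.055, 0.043 and 0.004) and after cyclic loess (0.105, 0.057, 0.047, 0.033 and -0.009). It was not stable when arrays were left out. Without wild-type array 4 complex I was at 0.081 and complex V at 0.064, and without Mll1 knockout array 1 they were at 0.113 and 0.109. Without Mll1 knockout array 4 complex I was at 0.108, V at 0.093, II at 0.072 and IV at 0.053. Neighbours in this order lay closer together than the larger of their SDs between arrays of a group. These SDs of array means were 0.057 for complex III, 0.045 for complex V, 0.030 for complex I, 0.036 for complex IV and 0.034 for complex II. All complexes were read on the same 8 arrays, so these SDs do not measure the spread of a difference between complexes. No difference between complexes was tested, since the genes were chosen with results known.

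**Figure D3:**
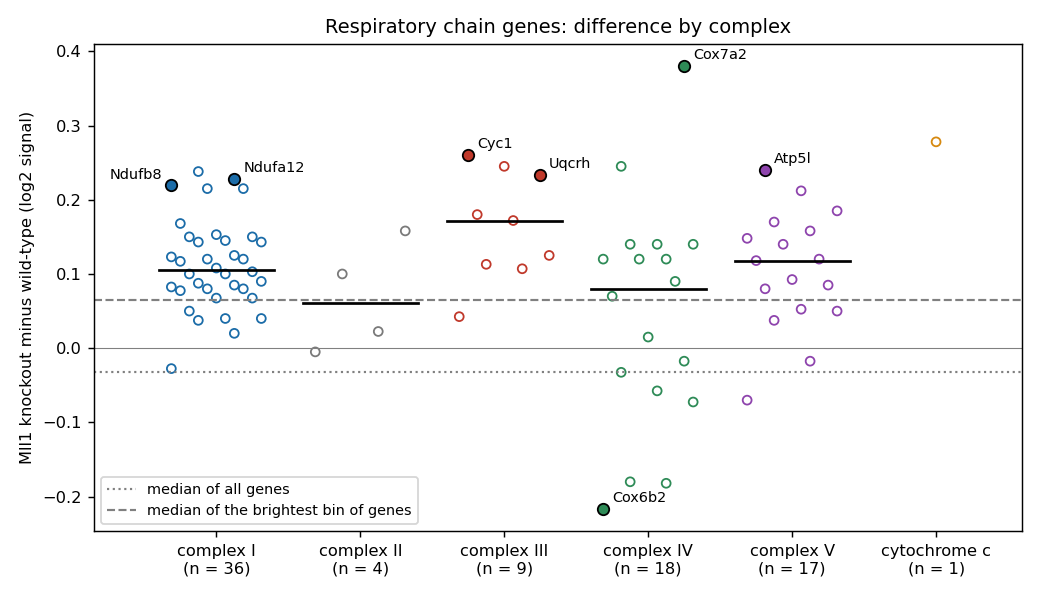
Difference between the arrays labelled Mll1 knockout and wild-type (y axis, log2) for each gene, by complex (x axis, with the number of genes). Filled points passed the threshold, black lines are medians of a complex, the dotted line is the median of all genes and the dashed line that of the brightest bin. Complex III has the highest median at 0.172, and complex IV spans -0.22 to 0.38.

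Arrays within a group were not alike. Averaged over the genes of complex III, wild-type arrays 1 to 4 lay at -0.098, -0.035, -0.055 and -0.140 from the 8-array means, and Mll1 knockout arrays 1 to 4 at 0.021, 0.055, 0.080 and 0.173. For complex I the means were -0.061, -0.025, -0.040 and -0.100 in wild-type and 0.036, 0.029, 0.081 and 0.080 on the other arrays. In the deposited values the groups did not overlap for complexes I, III and V, and they did for II and IV. After quantile normalization they were apart for complex III alone. Wild-type array 4 was the lowest of all 8 arrays for 44 of the 85 genes, and Mll1 knockout array 4 the highest for 32. Without wild-type array 4 the median of complex V was 0.064, and 10 genes rose in place of 6, while the share of all genes that rose was 6.28% in place of 5.15%. Without Mll1 knockout array 3 Cox7a2 alone rose, and 1.66% of all genes.

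**Figure D4:**
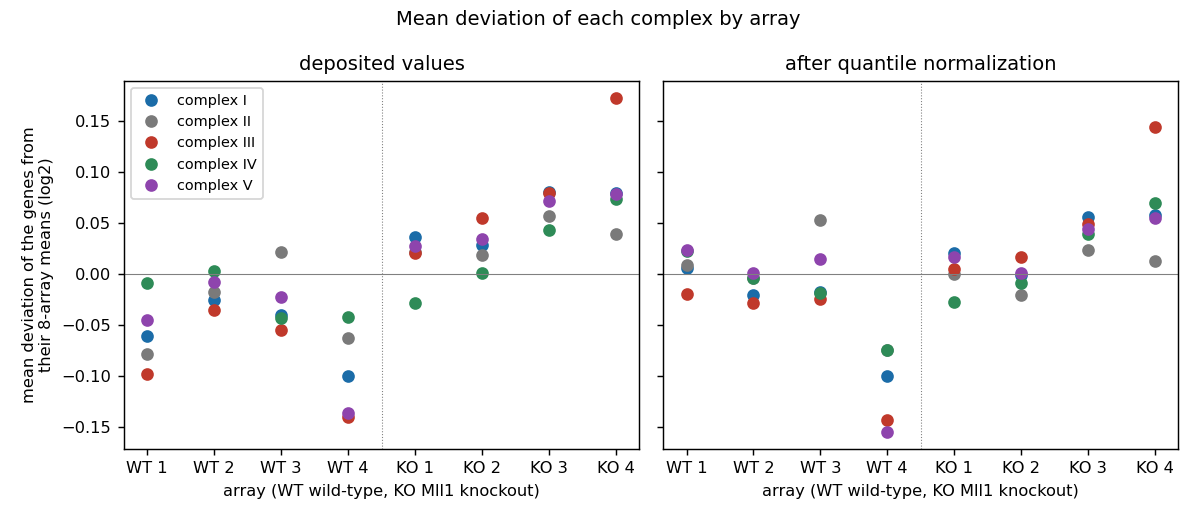
Mean deviation of the genes of each complex from their 8-array means (y axis, log2) on each array (x axis), in the deposited values (left) and after quantile normalization (right). In the deposited values complexes I, III and V lie below 0 on all wild-type arrays and above 0 on all arrays labelled Mll1 knockout. After quantile normalization the groups lie closer together and overlap for every complex except III, with wild-type array 4 lowest for every complex.

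Complex I, the NADH dehydrogenase, had the most genes and 2 rises among 36 (5.56%, beside 5.15% of all genes). Of the 36 differences 35 were above 0 (32 after quantile normalization), beside 41.7% of all genes and 74.3% of the brightest bin. Ndufa12 encodes an accessory subunit of the arm that reaches into the matrix. Its signal was 10.17, 10.16, 10.12 and 10.07 on wild-type arrays 1 to 4 and 10.31, 10.29, 10.39 and 10.44 on Mll1 knockout arrays 1 to 4. The groups did not overlap, and the rise was 0.23 ± 0.05 log2 (SE) or 1.17-fold (limma adjusted p = 0.0225). After quantile normalization the difference was 0.17 (limma adjusted p = 0.108), and the call also ended without Mll1 knockout array 3 (limma adjusted p = 0.0687).

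Ndufb8 encodes an accessory subunit of the membrane arm. It gave 9.32, 9.41, 9.45 and 9.26 in wild-type and 9.58, 9.51, 9.69 and 9.54 on the arrays labelled Mll1 knockout. The groups did not overlap, and the rise was 0.22 ± 0.06 log2 (limma adjusted p = 0.0381). After quantile normalization it was at 0.17 (limma adjusted p = 0.0977). The call held in only 1 of the 8 fits that left out 1 array, with limma adjusted p from 0.0372 to 0.106, and wild-type array 3 was the array it held without.

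Ndufb5, another membrane arm subunit, had the largest difference of the complex at 0.24 ± 0.07 and missed the threshold (limma adjusted p = 0.0558). Ndufc2, the brightest gene of the complex, was at 12.66 ± 0.02 in wild-type and 12.76 ± 0.05 on the other arrays (SD, n = 4 and 4; limma adjusted p = 0.147). None of the 7 core subunits that carry the flavin and iron-sulfur clusters or bind ubiquinone passed, and their differences ran from 0.02 (Ndufs7) to 0.14 (Ndufv1, which binds NADH). Of the 16 genes of the matrix arm 1 rose, with a median of 0.086, and of 19 genes of the membrane arm 1 rose, with a median of 0.120. Ndufa4 keeps its complex I name but is now counted as a complex IV subunit, and it was at 0.15 ± 0.06 (limma adjusted p = 0.112).

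Complex II, the succinate dehydrogenase of the citric acid cycle, had no call. Sdhb, the iron-sulfur subunit, came nearest, with 10.02, 10.01, 10.07 and 9.84 in wild-type and 10.09, 10.08, 10.19 and 10.21 on the arrays labelled Mll1 knockout. Its values did not overlap, and the difference was 0.16 ± 0.06 (limma adjusted p = 0.0984). Sdha, the flavoprotein that oxidises succinate, was at 0.02 ± 0.05, with 11.92 to 12.03 in wild-type and 11.96 to 12.07 on the other arrays. Of the membrane anchors, Sdhd was at 0.10 ± 0.05 and Sdhc at -0.005 (limma adjusted p = 0.204 and 0.951).

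Complex III, which passes electrons from ubiquinol to cytochrome c, had 2 rises among 9 genes (22.2%). Of all genes 5.15% rose, and of those in the brightest 4 of the 10 bins, where all 9 lie, 10.4% rose. All 9 differences were above 0, beside 41.7% of all genes and 74.3% of the brightest bin. Uqcrc2 was at -0.03 after quantile normalization. Cyc1 encodes cytochrome c1, its haem protein that hands electrons to cytochrome c. Wild-type values were 10.27, 10.40, 10.44 and 10.20, and knockout values 10.55, 10.54, 10.65 and 10.61. The groups were apart by less than the range within wild-type, and the rise was 0.26 ± 0.06 log2 or 1.2-fold (limma adjusted p = 0.0253). It was at 0.19 after quantile normalization (limma adjusted p = 0.0916). The call ended without wild-type array 1 and without Mll1 knockout array 2, 3 or 4 (limma adjusted p up to 0.077).

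Uqcrh, the hinge protein that helps bind cytochrome c, gave 10.70, 10.75, 10.76 and 10.50 in wild-type and 10.89, 10.83, 10.95 and 10.97 on the arrays labelled Mll1 knockout. Wild-type array 4 was the lowest, and the groups did not overlap. The rise of 0.23 ± 0.06 (limma adjusted p = 0.0413) held in 2 of the 8 fits without 1 array, those without wild-type 3 or 4, and was at 0.16 after quantile normalization (limma adjusted p = 0.201). Uqcr11 had a similar difference of 0.25 ± 0.12, but Mll1 knockout array 4 alone, at 10.65, set it apart from 9.99 to 10.09 on the other 3 (limma adjusted p = 0.178). Among the larger subunits Uqcrc1 was at 0.13 ± 0.05, the Rieske iron-sulfur protein Uqcrfs1 at 0.11 ± 0.06 and Uqcrc2, the brightest gene of the complex, at 0.04 ± 0.05, and none passed.

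Complex IV, cytochrome c oxidase, gave the largest rise and the only fall. Cox7a2 encodes the widely expressed form of a small subunit whose other form, Cox7a1, is typical of heart and skeletal muscle. Its signal was 10.69, 10.84, 10.73 and 10.90 on wild-type arrays and 11.06, 11.17, 11.26 and 11.19 on the arrays labelled Mll1 knockout. Every knockout value lay above every wild-type value. The rise was 0.38 ± 0.06 log2 (SE) or 1.30-fold, from 10.79 ± 0.10 to 11.17 ± 0.08 (SD, n = 4 and 4; limma adjusted p = 0.00567). It held under all 18 alternative fits, at 0.31 to 0.44 (limma adjusted p 0.00121 to 0.0401). After quantile normalization the rise was 0.32 (limma adjusted p = 0.00869).

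Cox6b2 moved the other way. Its signal was 7.85, 7.80, 7.81 and 7.77 in wild-type and 7.53, 7.54, 7.67 and 7.62 on the arrays labelled Mll1 knockout. The groups did not overlap, and Cox6b2 fell by 0.22 ± 0.05 log2, or was 1.16-fold higher in wild-type (limma adjusted p = 0.0231). Among the 2400 genes of the same bin of signal level, at 7.43 to 7.85, the median difference was -0.102 and 241 genes fell. The difference was -0.14 after quantile normalization (limma adjusted p = 0.122). The call ended without wild-type array 1 and without Mll1 knockout array 1 or 2 (limma adjusted p up to 0.066).

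**Figure D5:**
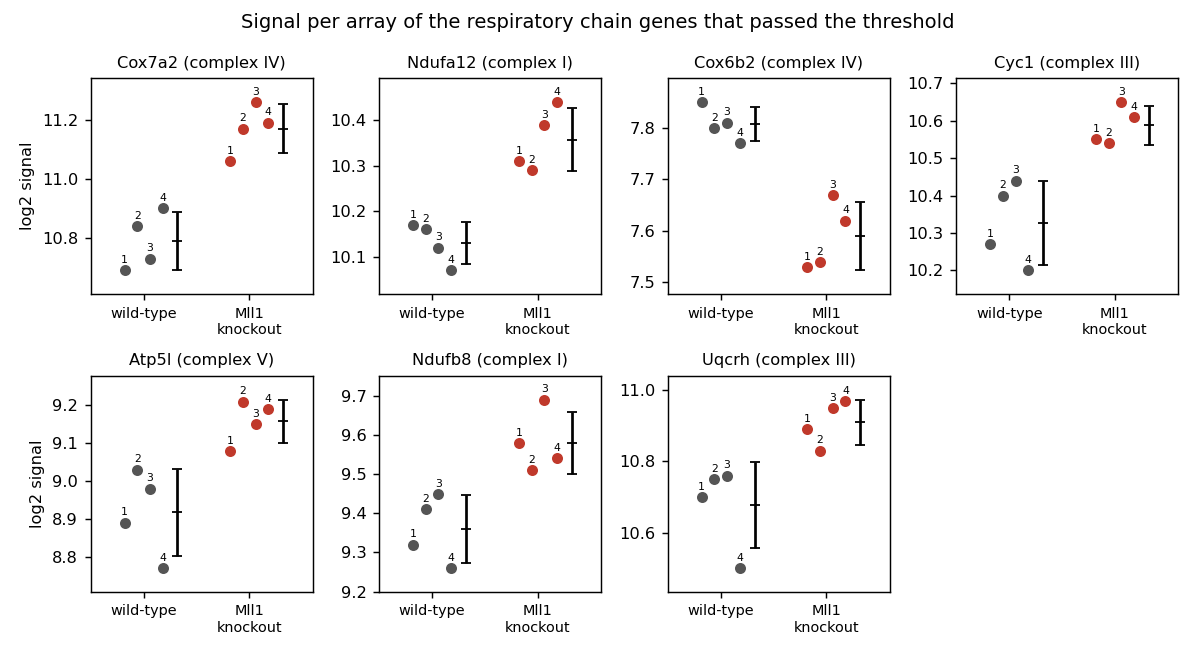
Signal (y axis, log2) of the 7 genes that passed the threshold on each array, with wild-type in grey and Mll1 knockout in red, numbered by replicate. Bars give mean ± SD (n = 4 per group), and the y axes differ between panels and do not start at 0. The groups do not overlap in any of the 7 panels.

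The isoforms of complex IV subunits that are typical of muscle, testis or lung differed in sign from the widely expressed ones. All 7 of them (Cox4i2, Cox6a2, Cox6b2, Cox7a1, Cox7b2, Cox8b and Cox8c) had differences below 0, from -0.22 to -0.02, with 1 call. All 11 other genes of the complex were above 0, from 0.02 (Cox8a) to 0.38 (Cox7a2), also with 1 call. The isoforms had mean signals of 6.04 to 9.17, whereas 10 of the other 11 lay in the brightest bin. All isoforms but Cox6a2 lay in the dimmer 5 bins, where the medians of all genes were below 0. Cox6a2, at 9.17, lay in a bin with a median difference of 0.057 over all genes, and its own difference was -0.03. The signs depended in part on scaling. After quantile normalization Cox7b2 was at 0.07 and Cox8a at -0.05, and with centred arrays Cox6a2 was at 0.03, Cox7b2 at 0.04 and Cox4i2 at 0.00. Cox6b2, Cox8b, Cox8c and Cox7a1 were below 0 in the deposited values and under all 3 scalings.

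Pairs of isoforms showed this gene by gene. Cox8b, the muscle form of the smallest subunit, was 7.93, 7.83, 7.71 and 7.74 in wild-type and 7.67, 7.57, 7.64 and 7.6 on the other arrays, a difference of -0.18 ± 0.06 that missed the threshold (limma adjusted p = 0.0587). Its widely expressed partner Cox8a was at 0.02 ± 0.04, with 12.09 to 12.12 in wild-type and 12.07 to 12.17 on the other arrays, and Cox8c was at -0.18 ± 0.07. Cox4i1, the main form of the subunit that binds ATP as a regulator, was at 0.14 ± 0.05 and Cox4i2 at -0.06 ± 0.05. Cox6a1 was at 0.12 ± 0.07 and its muscle form Cox6a2 at -0.03 ± 0.05. Cox6b1, the partner of Cox6b2, was at 0.24 ± 0.10, with Mll1 knockout array 4 at 11.81 and the other 3 at 11.34 to 11.40. Cox7a1 was at -0.07 ± 0.05, Cox7b at 0.14 ± 0.06 and Cox7b2 at -0.02 ± 0.05. None of these passed (limma, adjusted p from 0.0587 to 0.833).

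None of 6 skeletal muscle markers passed, all 6 were below 0, with mean levels of 7.74 to 7.86 over the wild-type mice and 7.6 to 7.78 over the mice labelled knockout. Of 5 markers of parvalbumin interneurons 1 rose, Tac1 (0.77 ± 0.12, limma adjusted p = 0.0052), and Pvalb itself was at -0.18 ± 0.08. All 4 markers of that list other than Tac1 were below 0 and did not pass, and the list had a median of -0.065. Its mean level, which Tac1 enters, was 9.67 to 9.86 in wild-type and 9.83 to 9.92 on the other arrays. The part of such cells in the isoform values was not tested. Cox7a2l, which helps to join complexes III and IV into supercomplexes, was at 0.12 ± 0.05 and, after quantile normalization, at 0.19 (limma adjusted p = 0.132 and 0.0776). Its knockout values of 7.88 to 7.93 lay above the wild-type values of 7.66 to 7.85. Cox6c, the brightest gene of the complex, was at 0.07 ± 0.05, and a further cluster of that name at 0.00.

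Complex V, the ATP synthase, had 1 rise among 17 genes (5.88%, beside 5.15% of all genes). In 15 genes the difference was above 0 (13 after quantile normalization), beside 41.7% of all genes and 74.3% of the brightest bin. Atp5l encodes subunit g of the membrane part, which takes part in joining ATP synthases into dimers. Its signal was 8.89, 9.03, 8.98 and 8.77 in wild-type and 9.08, 9.21, 9.15 and 9.19 on the arrays labelled Mll1 knockout. The groups did not overlap, and the rise was 0.24 ± 0.06 log2 or 1.18-fold (limma adjusted p = 0.0342). It was at 0.22 after quantile normalization (limma adjusted p = 0.0629). The call ended without wild-type array 1 and without Mll1 knockout array 2, 3 or 4 (limma adjusted p up to 0.0889).

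Atp5l shares its sequence with processed copies, and probes may read several of them. A further Atp5l cluster was at 0.28 ± 0.06 and the pseudogene clusters Atp5l-ps1 and Atp5l2-ps at 0.22 ± 0.07 and 0.24 ± 0.07, so the 4 clusters cannot be assigned to 1 transcript. Atp5h, subunit d of the stalk, had clusters at 0.15 ± 0.05 and 0.24 ± 0.05. The first, brighter one was used and did not pass (limma adjusted p = 0.0655), while the other had a limma adjusted p of 0.0148 over all clusters. The 3 genes for subunit c, the rotating ring, were at 0.17 ± 0.06 (Atp5g1), 0.08 ± 0.05 (Atp5g2) and 0.12 ± 0.05 (Atp5g3), and none passed (limma, adjusted p from 0.0816 to 0.262).

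The 5 genes of F1, the catalytic head of ATP synthase, lay between 0.04 (Atp5d) and 0.18 (Atp5e), with a median of 0.093 and no call. Atp5b, the catalytic beta subunit and brightest gene of the complex, was at 13.03 ± 0.05 in wild-type and 13.12 ± 0.04 on the other arrays (SD, n = 4 and 4; limma adjusted p = 0.19). The 10 genes of the membrane part and stalk had a median of 0.134. The groups did not overlap in 5 of these 10, beside 9.47% of all genes and 23.9% of the brightest bin, and in 2 of them after quantile normalization, beside 8.32% of all genes. Atp5f1, subunit b of the stalk, was the exception in direction, at -0.07 ± 0.05 (limma adjusted p = 0.305). Atp5s and Atp5sl carry the Atp5 name but are not structural subunits, and they were at -0.02 ± 0.05 and 0.08 ± 0.05.

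Cycs is the soluble electron carrier between complexes III and IV. The brighter cluster of that name varied most between wild-type mice of all 85 genes. It gave 11.54, 11.84, 11.53 and 12.05 in wild-type and 11.90, 12.08, 11.99 and 12.10 on the arrays labelled Mll1 knockout. The groups overlapped because of wild-type array 4. The difference was 0.28 ± 0.10 (limma adjusted p = 0.0971). A dimmer Cycs cluster was at -0.12 ± 0.10, so the clusters of that name disagree in sign. The files do not settle which of them reads Cycs. Without wild-type array 4 the brighter cluster was at 0.38 and passed (limma adjusted p = 0.0203).

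The authors' deposited table gave 5 of 93 clusters of these genes an FDR p-value under 0.05 (5.38%, beside 4.13% of all its clusters). In the authors' deposited table these were Cox7a2, Ndufa12, Atp5c1 and 1 Atp5h cluster, higher in knockout, and Cox6b2, lower. In the fit here Atp5c1, the gamma subunit that turns inside F1, was at 0.14 ± 0.05 and did not pass (limma adjusted p = 0.066).

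Genes that build or regulate the chain were counted in the same way. Of 78 measured genes in 6 lists 3 rose and none fell, beside 5.15% and 5.69% of all genes. None of the 78 rose without wild-type array 1, without Mll1 knockout array 1, 3 or 4, or with an unmoderated test. In those fits 1.66% to 3.02% of all genes rose. Their median was 0.068, and 22 were higher at an unadjusted p under 0.05, beside 12.7% of all genes. That share was not counted among genes of similar signal level. Gabpa, the DNA-binding subunit of the ETS factor NRF-2 that acts at many of these promoters, had 8.0, 8.05, 8.15 and 7.90 in wild-type and 8.27, 8.43, 8.15 and 8.22 on the other arrays. The groups met at 8.15, and the rise was 0.24 ± 0.07 (limma adjusted p = 0.0479, and 0.0437 after quantile normalization). Nrf1, the other classical factor of these promoters, was at -0.03 ± 0.06, the coactivator gene Ppargc1a at 0.07 ± 0.05 and Tfam, which packages mitochondrial DNA, at 0.15 ± 0.08, and none of these passed.

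Assembly factors were counted by complex. Of 14 genes listed for complex I, which include the subunit gene Ndufab1, only Ndufaf7, a methyltransferase, rose (0.20 ± 0.06, limma adjusted p = 0.0476, and 0.087 after quantile normalization). Of 11 for complexes II and III and cytochrome c only Sdhaf4, which acts on the flavoprotein of complex II, rose (0.22 ± 0.06, limma adjusted p = 0.033, and 0.0175 after quantile normalization). None of 19 for complex IV passed, and the copper chaperone gene Cox17 was at 0.15 ± 0.05 (limma adjusted p = 0.0792, and 0.0442 after quantile normalization). Neither the 5 genes around complex V nor the 17 genes of the citric acid cycle had a call. Tmem70 was at 0.15 ± 0.05 and Idh2 at 0.15 ± 0.05 (limma adjusted p = 0.0965 and 0.0791).

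Promoters were read because many of these genes share binding motifs of NRF1 and of ETS factors such as GABPA. All 85 genes matched a RefSeq gene, and 70 had a window in the reference table (GRCm38.p6), of which the 250 bases before the start were searched on both strands. The NRF1 motif GCGCANGCGC was present in 13 of the 70 (18.6%), beside 4.23% of all genes with a window, and the ETS motif CCGGAAG in 12 (17.1%), beside 7.83%. The ESRRA motif AAGGTCA was present in 5 (7.14%), beside 4.70%. Windows of the chain genes were richer in G and C, with a median of 56.2% against 52.4% over all windows. The part of this base content in the motif shares was not tested. The genes with the ETS motif had a median difference of 0.145 and 2 rises (Atp5l and Uqcrh), and those without it 0.105. The 5 genes with the ESRRA motif had the same median of 0.145 and 1 rise (Atp5l), and those without it 0.108. The Atp5l clusters could not be assigned to 1 transcript, so the Atp5l rise may not belong to the promoter searched here. Those with the NRF1 motif had 0.120 and no rise, and those without it 0.113. A match is a description of letters and not a bound site.

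The windows below are those of the strongest rise, of both rises with the ETS motif, and of the single fall, each 250 bases, 5′ to 3′ toward the start, with motif matches in capitals. Cox7a2 lies at chr9:79759854-79760103, Uqcrh at chr4:116075071-116075320, Atp5l at chr9:44920743-44920992 and Cox6b2 at chr7:4753095-4753344 (GRCm38.p6), all on the minus strand. The Uqcrh window has an ETS match near the start. The Atp5l window has an ETS match near its far end and an ESRRA match near the start. The windows of Cox7a2 and Cox6b2 hold none of the 3 motifs. The Atp5l signal may come from processed copies and not from the gene at this window.
Cox7a2: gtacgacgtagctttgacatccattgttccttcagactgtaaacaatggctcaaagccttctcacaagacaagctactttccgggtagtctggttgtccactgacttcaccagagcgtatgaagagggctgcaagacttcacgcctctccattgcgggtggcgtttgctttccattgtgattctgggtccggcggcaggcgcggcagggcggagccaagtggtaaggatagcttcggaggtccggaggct
Uqcrh: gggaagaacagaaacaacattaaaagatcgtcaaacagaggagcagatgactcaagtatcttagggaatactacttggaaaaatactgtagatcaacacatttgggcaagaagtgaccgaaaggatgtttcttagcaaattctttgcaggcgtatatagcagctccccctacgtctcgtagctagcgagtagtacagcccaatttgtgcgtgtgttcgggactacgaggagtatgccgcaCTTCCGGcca
Atp5l: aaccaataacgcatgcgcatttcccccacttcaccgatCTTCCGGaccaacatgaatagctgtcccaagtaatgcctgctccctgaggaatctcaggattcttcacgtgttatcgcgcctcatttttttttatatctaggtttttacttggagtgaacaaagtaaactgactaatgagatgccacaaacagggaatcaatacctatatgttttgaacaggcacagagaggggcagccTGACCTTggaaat
Cox6b2: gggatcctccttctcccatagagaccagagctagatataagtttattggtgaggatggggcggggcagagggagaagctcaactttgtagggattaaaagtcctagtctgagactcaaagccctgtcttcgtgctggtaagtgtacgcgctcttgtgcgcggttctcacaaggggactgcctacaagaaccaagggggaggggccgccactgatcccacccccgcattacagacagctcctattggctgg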

How the data were processed

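Prefrontal cortex RNA of 8 mice was measured on Affymetrix arrays, 1 array per mouse, and arrays were grouped by their titles. The deposited values are log2 signals per transcript cluster, which sum up several probes of a gene. RMA, Affymetrix Expression Console and Transcriptome Analysis Console 3.0 are named, with no role or order, per the submitters' processing notes. Genome build and annotation are not given in the sources used here. A second table holds the authors' bi-weight mean log2 signals, their signed fold, and p-values before and after FDR adjustment, per the file headers.

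Clusters naming 1 gene were kept, with the brightest cluster over all 8 arrays for each symbol, which left 23983 genes. No filter or pseudocount was used. Differences were fitted with limma 3.58.1 (lmFit, eBayes) in R 4.3.3, without covariates. P-values were adjusted by Benjamini-Hochberg across the 23983 genes, 0.05 being the threshold, and the procedure was tested on simulated data. Levels carry the SD over 4 arrays and differences the SE from limma. Array number limits the precision, and arrays give no count depth. Each p-value sets a group difference against the spread between these arrays, which eBayes moderates with the other genes.

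The genes and lists were chosen with earlier results of these data known. Genes were named when they passed the threshold, had the lowest p or the highest level of a complex, or belonged to complex II, cytochrome c or a tissue isoform group. Others are given as members of a described pattern and were chosen after their values were seen. Alternatives were quantile normalization, cyclic loess with 3 iterations, centring, an unmoderated test, eBayes with trend and robust, array weights, a filter on dim genes, the mean of all clusters, a replicate block, other thresholds, and arrays left out. Promoter windows come from RefSeq (GRCm38.p6).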

Additional observations from a re-analysis of the deposited data

Results flagged for a closer look

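In 10 of 94 groups of 4 arrays, over the 47 chain genes named in the text, 1 array lay far from the other 3 (past Dixon's critical value). For independent groups chance gives about 1 in 20. The groups here share the same 8 arrays, and some genes, among them Uqcr11, were named after their values were seen. The count can therefore not be set against that share. Wild-type array 4 was low for Atp5g1, at 11.29 against 11.49 to 11.53, and for Cox6b1, at 11.06 against 11.27 to 11.31. Mll1 knockout array 4 was high for Cox6b1, at 11.81 against 11.34 to 11.40. Mll1 knockout array 3 was high for Atp5g2, at 11.85 against 11.73 to 11.75. Wild-type array 3 was low for Cox6a1, at 11.41 against 11.54 to 11.55, and Mll1 knockout array 1 was low for Cox7b, at 10.77 against 10.92 to 10.95. Mll1 knockout array 4 was high for Uqcr11, at 10.65 against 9.99 to 10.09, and array 3 of that group for Ndufa1, at 8.89 against 8.74 to 8.76. Ndufs7 was low on Mll1 knockout array 2, at 12.51 against 12.60 on each of the others, and Uqcrfs1 on wild-type array 4, at 9.06 against 9.28 to 9.30. None of these genes passed the threshold.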

How the results depend on the processing

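Cox7a2 was the only one of the 7 called genes that passed under all 18 alternatives. Over 47 named genes, 845 values under alternatives gave 51 lost calls, 32 gained calls and 0 reversed calls. Without wild-type array 4, Atp5h, Cox8b, Cycs and Ndufb5 passed as well. Of the 74 genes above 0, 62 stayed above 0 under every alternative, and of the 11 below 0, 5 stayed below.

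The count of chain genes that rose was 6. It was 1 after quantile normalization, 1 after cyclic loess, 29 with centred arrays, 10 with array weights, 11 with trend and robust eBayes, 3 with an unmoderated test and 1 without wild-type arrays 1 and 4. The share of all genes that rose moved with it, from 5.15% to 2.86%, 3.11%, 11.9%, 7.07%, 6.56%, 2.3% and 1.77% in the same order. Adjusted p under 0.1 gave 19 and under 0.01 gave 1. Leaving out 1 array gave 1 (without Mll1 knockout 3) to 10 (without wild-type 4), with 1.66% and 6.28% of all genes. The count that fell was 1. It was 0 after quantile normalization, cyclic loess or centring, with the replicate block, without wild-type arrays 1 and 4 and at 0.01, and 2 without dim genes, with array weights and at 0.1. Leaving out 1 array gave 0 to 2. Pathway genes that rose numbered 3, and 20 with centring, 5 without dim genes, 7 with array weights, 5 with trend and robust eBayes, 0 with an unmoderated test and 1 without wild-type arrays 1 and 4. Leaving out 1 array gave 0 to 6.

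Medians were lower after quantile normalization and cyclic loess and higher with centring. Over all 85 genes 0.113 became 0.060, 0.048 and 0.174, with 0.091 to 0.121 when 1 array was left out. For complex I 0.105 became 0.055, 0.047 and 0.166 (0.081 to 0.115), for complex II 0.061 became 0.004, -0.009 and 0.123 (0.031 to 0.076), and 0.019 without wild-type arrays 1 and 4. For complex III 0.172 became 0.116, 0.105 and 0.234 (0.122 to 0.208), for complex IV 0.080 became 0.043, 0.033 and 0.141 (0.053 to 0.104), and for complex V 0.118 became 0.071, 0.057 and 0.179 (0.064 to 0.128). Cycs, at 0.278, was at 0.080 as the mean of its clusters (0.208 to 0.381). The cause of these shifts was not tested.

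Replicate numbers gave no sign of pairing: deviations of same-numbered arrays correlated at -0.008, 0.010, 0.002 and 0.024. Arrays of different numbers correlated at -0.217 to 0.158. These values cannot show whether the mice were paired. With the replicate block 4 chain genes rose and 0 fell, and over all genes 799 rose and 759 fell, against 1236 and 1364 without it. With 4 arrays per group, differences near 0.2 lay close to the threshold, and dim genes had signals near the lower end of the scale.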

Other observations

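Wild-type array 4 was not low for every chain gene. It was the lowest of the 4 wild-type arrays for 48 of the 85 genes and the highest for 19, and Mll1 knockout array 4 was the highest of its group for 36. Cycs belonged to the 19, at 12.05 on wild-type array 4 and 11.53 to 11.84 on the other wild-type arrays. Of the 85 genes 3 lie on the X chromosome, Cox7b, Ndufa1 and Ndufb11, at 0.14, 0.15 and 0.11, and none of them passed (limma adjusted p = 0.134, 0.123 and 0.283).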
